A study of Mus musculus with 6 samples.

Results

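A set of 10 genes of bone morphogenetic protein (BMP) signalling was examined for CpG methylation in the mouse dentate gyrus. It held the ligands Bmp2, Bmp4, Bmp6 and Bmp7, the receptors Bmpr1a, Bmpr1b and Bmpr2, the antagonists Nog and Chrd, and the inhibitory Smad gene Smad6. A gene's sites were all covered cytosines from 1 kb upstream of its start to its end, by the GENCODE M21 gene records on mm10. The 10 genes held 1103 sites, which was 0.124% of the 890041 sites of the table, and all 1103 lay at a CpG of the reference sequence. Sites within 1 kb of the start of any annotated transcript of the gene were called promoter (843 sites) and the others body (260 sites).

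The assay was RRBS (reduced representation bisulfite sequencing), in which DNA is cut at CCGG and converted with bisulfite so that methylated cytosines can be read. The animals were female C57BL/6JRj mice of 4.5 months in standard housing (STD, 3 mice) or environmental enrichment (ENR, 3 mice), and each library held the micro-dissected dentate gyrus of 1 mouse. No allele, transgene or other agent is given for any mouse, and the groups differed by housing alone as far as the labels say. The dentate gyrus holds several cell types, so a level between 0 and 100% cannot be divided into cell types here, and the tissue label could not be checked because marker genes are read from RNA. The mean over all sites of the table ranged from 22.5 to 24.3% in STD and from 21.3 to 24.2% in ENR, with the library numbered 3 the lowest in each group. Each value is the percent of reads methylated at a site. The number of reads behind it is unknown beyond the minimum of 10 that the authors set.

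BMP ligands bind a complex of type I receptors (Bmpr1a or Bmpr1b) and the type II receptor Bmpr2, and the activated receptor phosphorylates Smad proteins that enter the nucleus and regulate genes such as those of the Id family. Noggin (Nog) and chordin (Chrd) bind the ligands outside the cell and keep them from the receptors, whereas Smad6 blocks the signal inside the cell. In the adult dentate gyrus, BMP signalling is known to hold neural stem cells in quiescence, and Noggin opposes it. CpG-rich promoters of most genes carry little methylation, and CpGs within gene bodies are often highly methylated.

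The 10 genes had low promoter methylation, and their levels differed mainly at the covered body sites. Mean promoter methylation over 6 mice ran from 0.80% in Bmp6 to 6.69% in Bmp4, while the median of all 19240 genes with at least 3 promoter sites was 2.26%. Of the 843 promoter sites, 820 (97.3%) had a mean under 10%, 23 lay between 10 and 90%, none was above 90%, and 458 were at 0 in all 6 mice. Body sites of the same genes were spread widely, with 114 of 260 under 10%, 104 between 10 and 90% and 42 above 90%. Mean body methylation ran from 0.566% in Bmpr2 to 74.6% in Bmpr1b, and the median of all 12285 genes with at least 3 body sites was 52.7%.

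Promoter and body were compared within each mouse for the 8 genes with at least 3 sites in both. Bmp6, Bmp7, Bmpr1b and Smad6 had a promoter that was lower than the body by more than 25 percentage points at a limma adjusted p under 0.05. These were 4 of 8 genes, and the same rule called 63.9% of all 8687 genes tested. With upstream sites only as the promoter, Bmp7 was at -24.3 and Smad6 at -18.6 points, which ended both calls, and with a promoter of 500 bp Smad6 was at -21.3 points. Bmp2 and Bmp4 passed the adjusted p with smaller differences, which made 6 of 8 with a lower promoter, against 84.2% of all genes by that rule. With medians over sites in place of means, Bmp2 and Bmp4 no longer passed (limma adjusted p = 0.263 and 0.861), and with the start of the gene record alone Bmp4 turned to 10.3 points, a higher promoter. Chrd and Bmpr2 did not pass. No gene of the 8 was called with a higher promoter, against 1.97% of all genes. The median difference of the 8 genes was -25.3 points and that of all genes was -39.3 points.

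Housing gave no call. ENR and STD were compared by limma for the whole region (22934 genes), the promoter (19204 genes) and the body (12278 genes), with a call at an adjusted p under 0.05 and a difference over 25 points. None of the 10 genes was called (0 of 10, 0 of 10 and 0 of 8), and the rule called 0% of all genes in each comparison. Promoter means of the 10 genes were at most 7.47% in any mouse, so a fall of 25 points was not possible there. With no call in any gene, the rule cannot tell an absent housing effect from one that it could not detect. The whole-region mean was lower in ENR in 6 of the 10 genes (57.6% of all genes) and the body mean in 5 of 8 (61% of all genes), and body groups were apart in 0 of 8, against 7.6% of all genes. At an unadjusted p under 0.05 by limma the counts were also 0 of 10, 0 of 10 and 0 of 8, where 3.86% (886 genes), 4.43% (851 genes) and 3.38% (415 genes) of all genes passed. With 3 mice against 3, the exact permutation test of a single gene cannot go below p = 0.1.

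**Figure D1:**
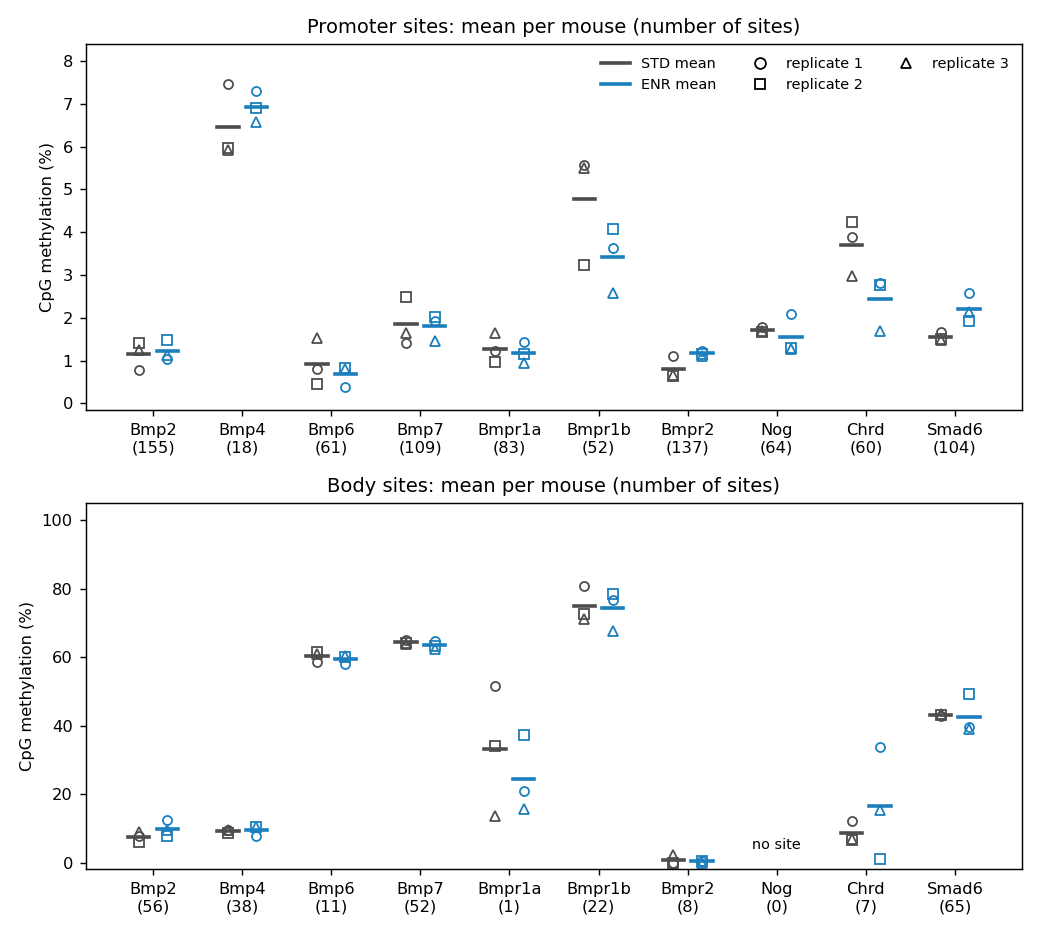
Mean CpG methylation (%, vertical axis) of the promoter sites (upper panel) and body sites (lower panel) of the 10 genes, with STD in grey, ENR in blue, each symbol 1 mouse and each bar a group mean. The numbers in brackets are sites, Nog had no body site and Bmpr1a had 1. Promoter means lie under 8% in every mouse (the upper axis ends near 8%, the lower near 100%), and body means range from near 0 in Bmpr2 to above 60% in Bmp7 and Bmpr1b.

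The ligand Bmp2 (chr2:133552159-133562885, plus strand), a growth factor first known for bone induction, was covered at 211 sites, of which 155 were promoter sites. Its promoter means were 0.776, 1.42 and 1.24% in STD and 1.04, 1.48 and 1.13% in ENR. The groups overlapped and differed by 0.077 points (two-sided exact permutation p = 0.9), and 87 of the 155 promoter sites were at 0 in all 6 mice. Body means were 7.73, 6.15 and 8.88% in STD and 12.5, 7.85 and 9.44% in ENR, with ENR replicate 1 the highest. The promoter was 7.58 points lower than the body (SD 2.25, limma adjusted p = 0.000160) and was lower in 6 of 6 mice.

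A short stretch of the first intron held 66.9% of the summed body level of Bmp2, and the other 40 body sites averaged 4.05% ± 0.960 (SD over 6 mice). Sites from 1007 to 1181 bases after the gene start averaged 5.61% ± 2.15 (SD over 6 mice). The next 16 sites, from 1204 to 1312 bases, averaged 20.5% ± 6.85, and the highest reached 54.7%. From 2324 to 2615 bases the mean over 31 sites was 3.60% ± 1.29. Methylation was therefore higher in these 16 sites, which span 108 bases, than at the covered sites before and after them. No site was covered between 1312 and 2324 bases, so where the higher level ends is unknown. Within the stretch the STD mice averaged 16.8, 12.9 and 22.9% and the ENR mice 32.8, 19.1 and 18.5%, and the groups overlapped. The site chr2:133553422 lies there and had the largest difference in Bmp2 among sites with groups apart. It was at 17.3, 21.7 and 27.0% in STD and at 66.7, 31.4 and 45.2% in ENR, so each ENR mouse was above each STD mouse (difference 25.7 points, limma adjusted p = 0.852). A site in the 5′ UTR before it, chr2:133553333, had one of the lowest limma p-values of the 10 genes among sites lower in ENR. It was at 15.8, 15.4 and 8.47% in STD and at 0, 0 and 1.79% in ENR (difference -12.6 points, unadjusted p = 0.0103, limma adjusted p = 0.852). The bases around both sites are shown on the plus strand, 5′ to 3′, from the GRCm38 reference, with the CpG of the named site in capitals, because these 2 sites lie 89 bases apart and their groups stood apart in opposite directions.
Bmp2 intron, chr2:133553393-133553452: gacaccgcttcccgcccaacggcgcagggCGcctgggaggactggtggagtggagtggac
Bmp2 5′ UTR, chr2:133553318-133553347: tagtgcttcttagaCGgactgcggtctcct

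Bmp4 (chr14:46383520-46390669, minus strand), a ligand with early roles in patterning of the embryo, had the highest promoter methylation of the 10 genes. Its promoter means were 7.47, 5.96 and 5.93% in STD and 7.29, 6.91 and 6.58% in ENR. The groups overlapped (difference 0.47 points, exact permutation p = 0.4), and the 6 values lay above all 6 values of Bmpr1b, the next gene in the order. Only 14 of the 162 promoter CpGs of Bmp4 (8.64%) were covered, by 18 sites, and these formed 2 patches with different levels. Upstream of the gene start, 5 sites averaged 22.1, 14.2 and 15.97% in STD and 20.6, 14.9 and 19.5% in ENR. At a second group of transcript starts, 13 sites from 2370 to 2528 bases after the gene start averaged 2.38% ± 0.806 (SD over 6 mice), and these 13 also lie in the record of another gene, Gm15222. The 250 bases before the gene start are shown on the gene's strand, 5′ to 3′ (GRCm38, chr14:46390670-46390919), with the 5 covered CpGs of 11 in capitals, because this stretch held the highest promoter level within Bmp4.
Bmp4 promoter: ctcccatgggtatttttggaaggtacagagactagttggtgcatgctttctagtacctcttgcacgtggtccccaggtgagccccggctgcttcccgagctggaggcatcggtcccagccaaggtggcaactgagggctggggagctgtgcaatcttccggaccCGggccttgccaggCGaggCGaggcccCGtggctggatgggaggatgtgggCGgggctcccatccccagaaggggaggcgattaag

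Going towards the gene, the 5 capitalised CpGs of Bmp4 had means of 15.9, 34.2, 20.8, 4.28 and 14.3% over the 6 mice. They lie 86, 72, 67, 59 and 35 bases upstream of the start. The single site with the widest spread, 72 bases upstream, was at 26.5, 19.5 and 36.4% in STD and at 56.2, 36.4 and 30.5% in ENR, so the groups overlapped. In the body of Bmp4, 29 sites from 4671 to 5003 bases averaged 3.45% ± 1.11, whereas the last 2 sites, in the coding sequence at 6262 and 6319 bases, averaged 96.3% ± 9.07. Promoter minus body was -2.69 points in Bmp4 (SD 1.32, limma adjusted p = 0.0125). This direction depended on which starts were used. With the start of the gene record alone the promoter was 10.3 points higher than the body (limma adjusted p = 0.000156), and with sites in other gene records left out it was 7.78 points higher (limma adjusted p = 0.000923).

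Bmp6 (chr13:38345107-38500302, plus strand), a ligand known for its part in iron regulation, had the lowest promoter methylation. The promoter means were 0.798, 0.451 and 1.52% in STD and 0.388, 0.835 and 0.803% in ENR, with overlapping groups (difference -0.25 points, exact permutation p = 0.6). Of all genes, 3.2% had a lower promoter mean. Of its 61 promoter sites, 44 were at 0 in all 6 mice and none reached 10%. The 11 body sites averaged 58.6, 61.4 and 61.1% in STD and 57.9, 60.1 and 60.2% in ENR, again with overlap. In each of the 6 mice the promoter was below the body, with a mean difference of -59.1 points (SD 1.26, limma adjusted p = 6.5e-09).

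Within the body of Bmp6 the level changed sharply with position. The 3 intronic sites from 46918 to 47094 bases after the start averaged 98.3% ± 3.10, while 4 sites in 2 patches between 65361 and 65630 bases averaged 2.73% ± 4.34 and 7.15% ± 12.2. In the 3′ UTR, 2 sites averaged 92.0% ± 3.58. Sites near 0 thus lay between highly methylated ones. The promoter end of Bmp6 is shown by a stretch of coding sequence near an annotated start (GRCm38, chr13:38346075-38346238, plus strand, 5′ to 3′), with the 13 covered CpGs of 15 in capitals. These 13 sites averaged 0.459, 0.285 and 1.63% in STD and were at 0 in all 3 ENR mice (exact permutation p = 0.1), and the stretch is shown because its many CpGs were almost free of methylation.
Bmp6 promoter: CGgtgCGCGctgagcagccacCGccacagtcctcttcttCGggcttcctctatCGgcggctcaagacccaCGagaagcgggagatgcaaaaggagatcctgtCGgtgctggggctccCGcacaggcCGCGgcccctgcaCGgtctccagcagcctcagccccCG

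Bmp7 (chr2:172868012-172940321, minus strand), a ligand with known roles in kidney and eye development, had promoter means of 1.41, 2.49 and 1.65% in STD and 1.92, 2.03 and 1.46% in ENR over 109 sites. Its 52 body sites averaged 65.1, 64.1 and 63.7% in STD and 64.9, 63.4 and 62.4% in ENR. The groups overlapped in both (exact permutation p = 1 and p = 0.4). Promoter minus body was -62.1 points (SD 1.06, limma adjusted p = 4.3e-09) and lay between -63.7 and -60.9 in the 6 mice. Methylation in Bmp7 was low well beyond the promoter, since 3 intronic sites from 5788 to 5888 bases averaged 5.77% ± 2.60 and 8 sites from 6260 to 6413 bases averaged 6.62% ± 4.65. From 23102 to 23804 bases, 2 patches of 5 and 13 sites averaged 92.8% ± 4.12 and 90.9% ± 1.91. A lower patch followed at 50674 to 50770 bases with 21.2% ± 7.86 over 4 sites, and the 7 sites from 52686 to 52751 bases averaged 81.2% ± 6.29.

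The most fully methylated patch of Bmp7 had 9 sites at 6 CpGs in an intron and averaged 97.2, 96.6 and 98.5% in STD and 98.6, 96.1 and 99.3% in ENR. It is shown on the gene's strand, 5′ to 3′ (GRCm38, chr2:172897008-172897101, all 6 CpGs covered and in capitals), as a contrast to the Bmp6 promoter, and it was chosen after its values were seen.
Bmp7 intron: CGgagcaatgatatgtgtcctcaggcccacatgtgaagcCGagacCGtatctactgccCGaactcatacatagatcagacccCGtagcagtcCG
The Bmp7 intron held 6 CpGs in 94 bases, against 15 in 164 bases of Bmp6. Of the 196 CpGs with both strands covered, 191 differed by at most 10 points between strands, but most lay near 0 or 100%, where a wide gap is hardly possible. The 14 CpGs between 10 and 90% had a median gap of 7.14 points, against 0.891 over all 196. The largest gap, 49.3 points, was in a coding exon of Bmp7, where chr2:172916533 on the plus strand averaged 96.5% and its partner on the minus strand averaged 47.2%.

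**Figure D2:**
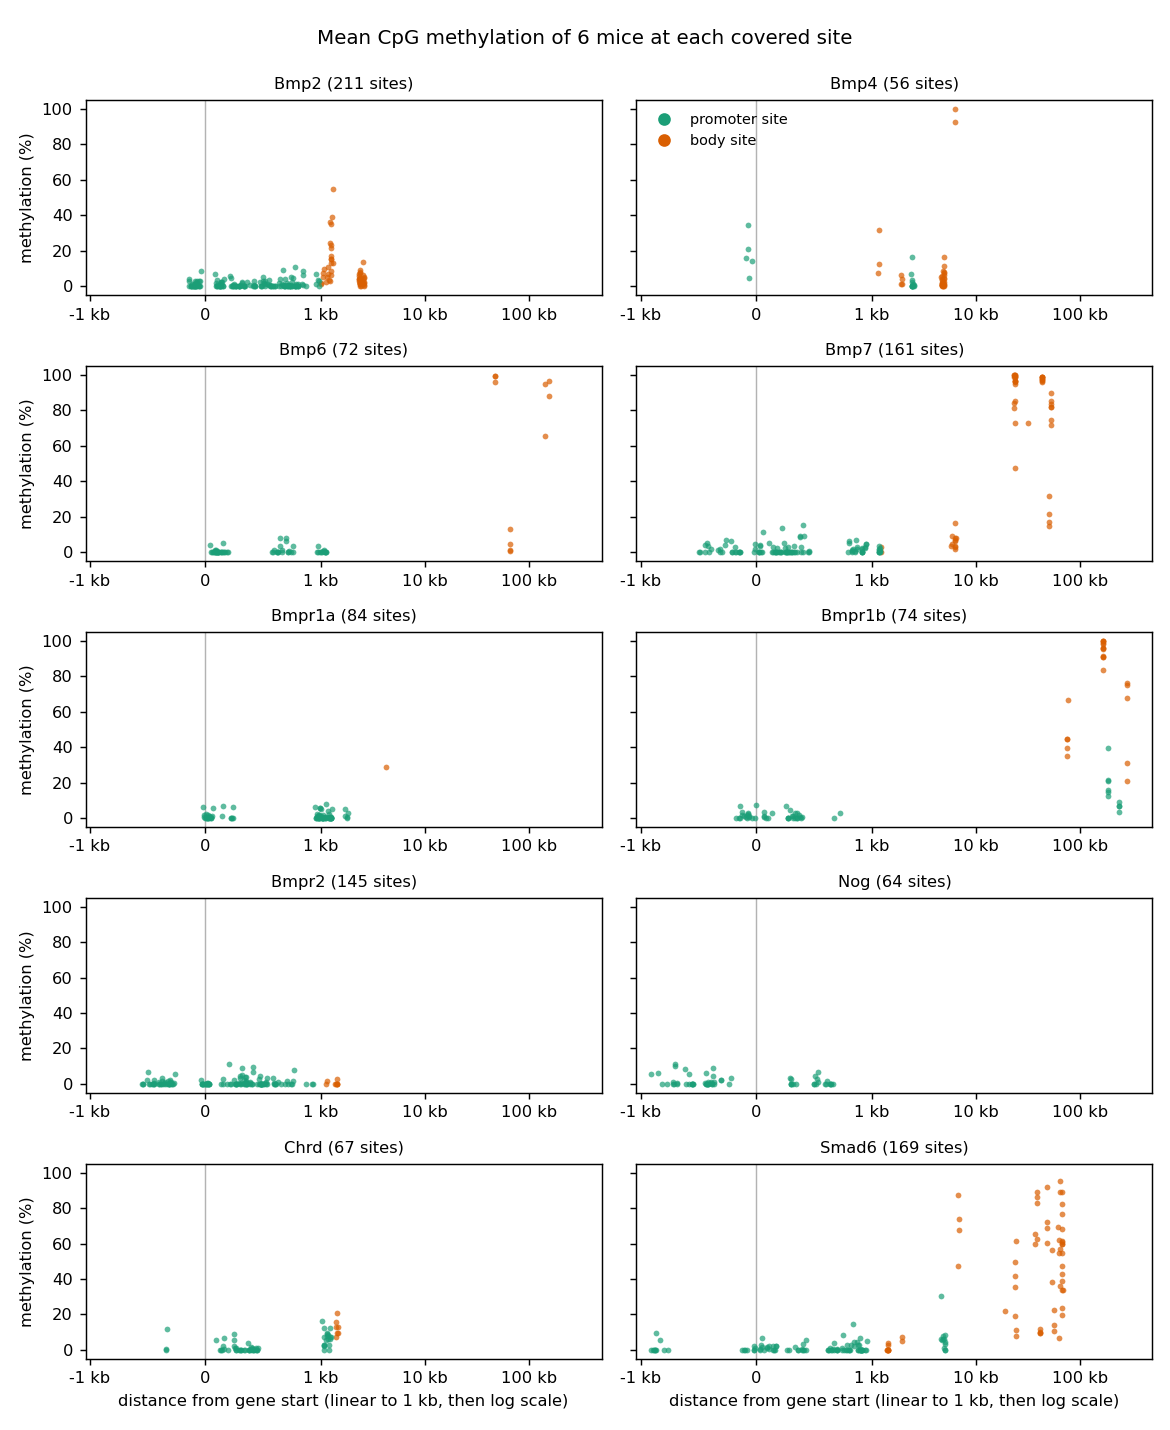
Mean methylation of 6 mice (%, vertical axis) at every covered site of the 10 genes against distance from the gene start (horizontal axis, linear to 1 kb and then on a log scale), with promoter sites in green and body sites in orange. Most sites near the start are close to 0, and the highest within 1 kb of it, upstream of Bmp4, is at 34.2%. Bmp4, Bmp6, Bmp7, Bmpr1b and Smad6 have body sites above 80%, the stretch of Bmp2 after 1 kb reaches 54.7%, and Bmpr2, Nog and Chrd have no site above 25%.

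Among the receptors, Bmpr1a (chr14:34410734-34503341, minus strand), which encodes a type I receptor, had promoter means of 1.23, 0.955 and 1.65% in STD and 1.43, 1.15 and 0.941% in ENR. The groups overlapped (difference -0.11 points, exact permutation p = 0.6). All 83 promoter sites were under 10%, and 52 of them also lie in the record of another gene, Gm17110. The only body site of Bmpr1a, in an intron 4265 bases after the start, was at 51.5, 34.0 and 13.7% in STD and at 20.8, 37.2 and 15.6% in ENR. One site does not describe a gene body of this length, and no test was made on it.

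Bmpr1b (chr3:141837136-142169425, minus strand), the other type I receptor gene, combined a low start with the highest body level of the 10 genes. Its promoter means were 5.58, 3.23 and 5.50% in STD and 3.62, 4.08 and 2.58% in ENR, and the groups overlapped (difference -1.34 points, exact permutation p = 0.3). Body means were 80.9, 72.5 and 71.3% in STD and 76.9, 78.5 and 67.7% in ENR, also with overlap (exact permutation p = 1). The mean of promoter minus body was -70.5 points (SD 4.45, limma adjusted p = 1.2e-08), with 6 of 6 mice below 0.

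The annotated starts of Bmpr1b differed in level. Around the gene start, 40 sites averaged 1.49% ± 0.536 (SD over 6 mice). At an internal start, 4 sites from 187421 to 187560 bases averaged 22.1% ± 12.6 and 2 neighbouring sites 18.3% ± 11.9. At a further start, 4 sites from 237968 to 238084 bases averaged 6.43% ± 2.34. In the body, 10 sites from 166303 to 166460 bases averaged 94.4% ± 4.21, and 5 sites from 282408 to 282540 bases averaged 54.3% ± 6.97. Bmpr1b also held the site with the largest housing difference of all 10 genes, chr3:142093373 in an intron, at 93.0, 60.6 and 41.7% in STD and 51.6, 21.4 and 0% in ENR. The groups overlapped at this site (difference -40.8 points, limma adjusted p = 0.852), and they did so at the internal-start site chr3:141982004, which was at 35, 5.56 and 77.8% in STD and at 11.1, 0 and 0% in ENR (difference -35.7 points, limma adjusted p = 0.852). STD alone spanned 51.4 and 72.2 points at these 2 sites, which were named after their values were seen. No label says that mice with the same replicate number are paired. Between such mice, ENR minus STD was -41.4, -39.2 and -41.7 points at the intronic site and -23.9, -5.56 and -77.8 points at the other. With the replicate number as a block, limma's unadjusted p was 0.0277 (0.0771 without it) at the intronic site and 0.0740 at the other (adjusted p = 0.882 for both).

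Bmpr2 (chr1:59763400-59879014, plus strand), which encodes the type II receptor, was low at all covered sites. Its promoter means were 1.11, 0.648 and 0.668% in STD and 1.23, 1.16 and 1.11% in ENR over 137 sites. The lowest ENR mouse was 0.00022 points above the highest STD mouse, so the groups stood just apart (difference 0.36 points, exact permutation p = 0.1, limma adjusted p = 0.998). With upstream sites only the difference was -0.18 points, in the opposite direction. Over the whole region of 145 sites the ENR mean was 0.32 points higher, and Bmpr2 was the 1 gene of 10 with groups apart there, where 8.47% of all genes had groups apart (3.04% with ENR higher). The 8 body sites averaged 0.566% ± 0.901, all of them within 1441 bases of the start, so the rest of this gene of 115615 bases had no value. Promoter minus body was 0.42 points (SD 1.04, limma adjusted p = 0.604).

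The antagonist Nog (chr11:89300638-89302332, minus strand) encodes Noggin and is a short gene of 1695 bases. All 64 of its sites were promoter sites, and 30 of them also lie in the record of another gene, Gm2018. The means were 1.78, 1.67 and 1.69% in STD and 2.08, 1.29 and 1.27% in ENR. The STD mice lay within 0.12 points of each other and between the ENR mice (difference -0.17 points, exact permutation p = 0.5). The 42 upstream sites of Nog averaged 1.94% ± 0.400 and the 22 sites in its exon averaged 1.03% ± 0.642, so no stretch of the gene stood out.

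Chrd (chr16:20733127-20742384, plus strand) encodes chordin. Its promoter means were 3.90, 4.24 and 2.98% in STD and 2.82, 2.78 and 1.70% in ENR, and each ENR mouse was below each STD mouse (difference -1.27 points, exact permutation p = 0.1, limma adjusted p = 0.998). All 60 promoter sites also lie in the record of Thpo, the thrombopoietin gene, and cannot be assigned to Chrd alone. With Bmpr2 and Smad6, Chrd was 1 of 3 genes of the 10 with promoter groups apart, where 9.46% of all genes had groups apart. The 2 with higher values in ENR compare with 3.8% of all genes, and the 1 with lower values compares with 5.67%. The differences of the 3 genes were at most 1.27 points, and 6 of the 10 genes had a lower promoter mean in ENR, against 53.2% of all genes.

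A pair of promoter sites of Chrd were named because their limma p-values were among the 2 lowest in their direction over the 10 genes. The site chr16:20733371 was at 6.78, 11.4 and 10.7% in STD and at 0, 0 and 4.76% in ENR (difference -8.05 points, limma adjusted p = 0.852). The site chr16:20733496 was at 0 in all 3 STD mice and at 9.30, 7.41 and 8.33% in ENR (difference 8.35 points, limma adjusted p = 0.852). The groups stood apart in opposite directions at sites 125 bases from each other. Their sequences on the plus strand, 5′ to 3′ (GRCm38), are shown with the CpG of the site in capitals.
Chrd intron, chr16:20733342-20733401: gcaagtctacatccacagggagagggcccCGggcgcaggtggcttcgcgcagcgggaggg
Chrd coding exon, chr16:20733467-20733526: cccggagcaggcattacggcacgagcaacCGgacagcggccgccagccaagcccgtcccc

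The 7 body sites of Chrd, all between 1397 and 1468 bases after the start, averaged 12.2, 6.49 and 7.02% in STD and 33.6, 1.13 and 15.2% in ENR. The ENR mice thus held both the highest and the lowest value (difference 8.08 points, exact permutation p = 0.6). Of the 7 sites, 3, 4 and 5 were at exactly 0 in the STD mice, and 6 and 5 in ENR replicates 2 and 3, whereas none was in ENR replicate 1. One of these sites, chr16:20734532, had a housing difference over 25 points (26.4 points) with values of 25.9, 0 and 53.3% in ENR and 0 in all 3 STD mice, and its groups overlapped. Promoter minus body was -9.56 points (SD 11.7, limma adjusted p = 0.0529) and was below 0 in 5 of 6 mice. With 1 library left out it ran from -5.31 points (without ENR replicate 1, limma adjusted p = 0.0600) to -11.8 points (without ENR replicate 2, limma adjusted p = 0.0336), and with upstream sites only it was 0.058 points. Without ENR replicate 1 the body difference between the groups was -0.40 points.

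Smad6 (chr9:63953076-64022059, minus strand), an inhibitor of BMP receptor signalling that the pathway itself is known to induce, had promoter means of 1.68, 1.49 and 1.48% in STD and 2.59, 1.91 and 2.13% in ENR. Each ENR mouse was above each STD mouse (difference 0.66 points, exact permutation p = 0.1, limma adjusted p = 0.998). Its 65 body sites averaged 43.0, 43.1 and 43.5% in STD and 39.5, 49.3 and 39.0% in ENR. STD mice were close to each other and lay between the ENR mice (difference -0.58 points, exact permutation p = 1). The difference of promoter and body was -41.0 points (SD 3.91, limma adjusted p = 1.3e-07), with 6 of 6 mice below 0.

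The body of Smad6 was mostly at intermediate levels, as 49 of 65 sites (75.4%) had a mean between 10 and 90% and 2 were above 90%. Patches along the gene differed in level, and those of at least 3 sites went up and down between 6758 and 48386 bases. The 4 sites from 6758 to 6911 bases averaged 69.0% ± 8.38, 5 sites from 24082 to 24155 bases averaged 33.2% ± 5.13, and 3 sites from 38861 to 38895 bases averaged 86.1% ± 8.10. Farther in, 4 sites from 41408 to 41509 bases averaged 10.3% ± 5.96, and 4 sites from 48326 to 48386 bases averaged 73.2% ± 6.39. Smaller patches lay between these. They averaged 21.9% (1 site, 19220 bases), 30.6% (2 sites from 23730 bases), 62.6% (2 sites from 37066 bases) and 62.6% (1 site, 38492 bases). With these included, the levels did not alternate between 19220 and 38895 bases.

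In the last coding exon of Smad6, 16 sites from 68068 to 68264 bases averaged 56.7, 44.4 and 60.9% in STD and 29.3, 74.98 and 53.2% in ENR. The ENR mice again held the lowest and the highest value (difference -1.50 points, exact permutation p = 0.9). At 8 of the 16 sites ENR replicate 1 was at exactly 0, and at 8 of the 16 ENR replicate 2 was at exactly 100%. STD replicate 3 and ENR replicate 3 each had 1 site at 0 and 2 at 100%, and STD replicates 1 and 2 had none at either. How far the number of reads plays a part in these extreme values was not tested.

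**Figure D3:**
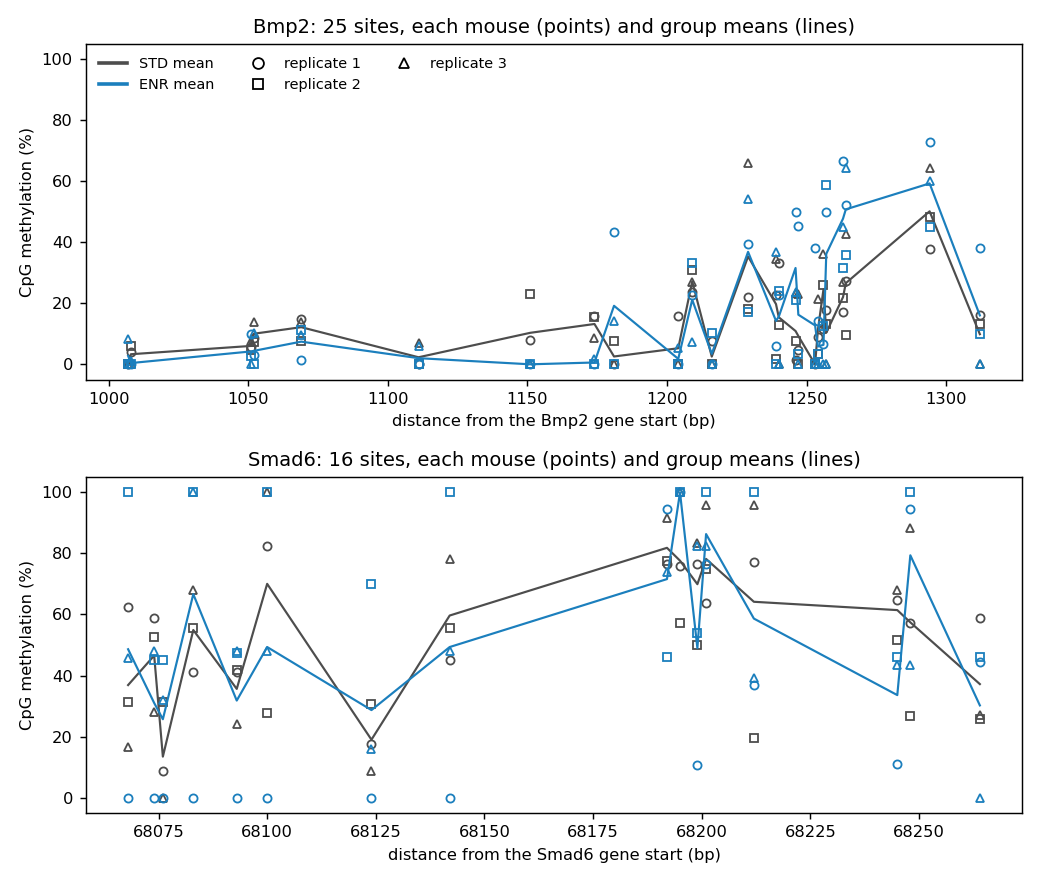
Methylation (%, vertical axis) at each site of the Bmp2 stretch from 1 kb after the gene start (upper panel, 25 sites) and of the last coding exon of Smad6 (lower panel, 16 sites) against distance from the gene start in bases, with each mouse as a symbol and group means as lines (STD grey, ENR blue). In Bmp2 the level climbs from 1204 bases on to a highest site mean of 54.7%. In Smad6, ENR replicate 1 (blue circles) sits at 0 at 8 sites and ENR replicate 2 (blue squares) at 100% at 8 sites.

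The site chr9:63953814 in this exon had the largest difference in Smad6 among sites with groups apart. It was at 64.7, 51.6 and 68.0% in STD and at 11.1, 46.2 and 43.5% in ENR, so each ENR mouse was lower (difference -27.9 points, limma adjusted p = 0.852). In the first part of the gene, the intronic site chr9:64015241 was at 81.9, 83.0 and 60.4% in STD and at 100% in all 3 ENR mice (difference 24.9 points, unadjusted p = 0.00730, limma adjusted p = 0.852). It had the lowest limma p-value of all sites of the 10 genes. Both are shown on the strand of Smad6, 5′ to 3′ (GRCm38), with the CpG of the site in capitals.
Smad6 coding exon, chr9:63953785-63953844: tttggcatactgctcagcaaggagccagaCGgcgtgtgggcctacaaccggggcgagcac
Smad6 intron, chr9:64015211-64015270: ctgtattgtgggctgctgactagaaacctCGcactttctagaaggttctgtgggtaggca

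Set in order of promoter methylation, the genes were Bmp6, Bmpr2, Bmp2, Bmpr1a, Nog, Bmp7, Smad6, Chrd, Bmpr1b and Bmp4, from lowest to highest. In this order the 6 mice of neighbouring genes overlapped for each pair except Bmpr1b and Bmp4. For the body the order was Bmpr2, Bmp2, Bmp4, Chrd, Smad6, Bmp6, Bmp7 and Bmpr1b. There, Bmp2 overlapped with Bmp4 and Bmp4 with Chrd, and the 6 values of the other neighbours were apart. RRBS covered different numbers of CpGs in each gene, from 2.56% of the CpGs of Bmpr1b to 49.0% of those of Bmp2, so levels of whole genes are levels of the covered CpGs. Among the genes in the body order, coverage of body CpGs alone ran from 0.681% in Bmp6 to 27.3% in Bmp2.

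Single sites were counted next. Of the 1103 sites, 6 (0.544%) had group means more than 25 points apart, against 1.94% of all sites. With 1 library left out the count of the 10 genes rose to between 8 (0.725%, without STD replicate 3, against 2.61% of all sites) and 17 (1.54%, without ENR replicate 2, against 3.08% of all sites). Since such a difference needs a level away from 0 and 100%, the 127 sites with a mean between 10 and 90% were also counted, and 6 (4.72%) passed, against 7.7% of all such sites. Of these, 3 were higher in ENR (2 in Bmp2 and 1 in Chrd) and 3 were lower (2 in Bmpr1b and 1 in Smad6), and 5 of the 6 were body sites. In each direction these were 0.272% of the 1103 sites, against 0.706% higher and 1.23% lower of all sites. The groups were apart at 2 of the 6, or 0.181% of the 1103 sites, against 0.81% of all sites. At 19 of the 1103 sites (1.72%) the groups were apart by any amount, against 3.99% of all sites. By limma, 0 of 615152 sites that varied in the table were called, and 7 of the 621 varying sites of the 10 genes (1.13%) had an unadjusted p under 0.05, against 2.68% of all. The paper does report CpGs differing by over 25% with housing at this age, from its own test, which could not be run here. The count of 0 therefore belongs to limma on percentages of 3 mice against 3.

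**Figure D4:**
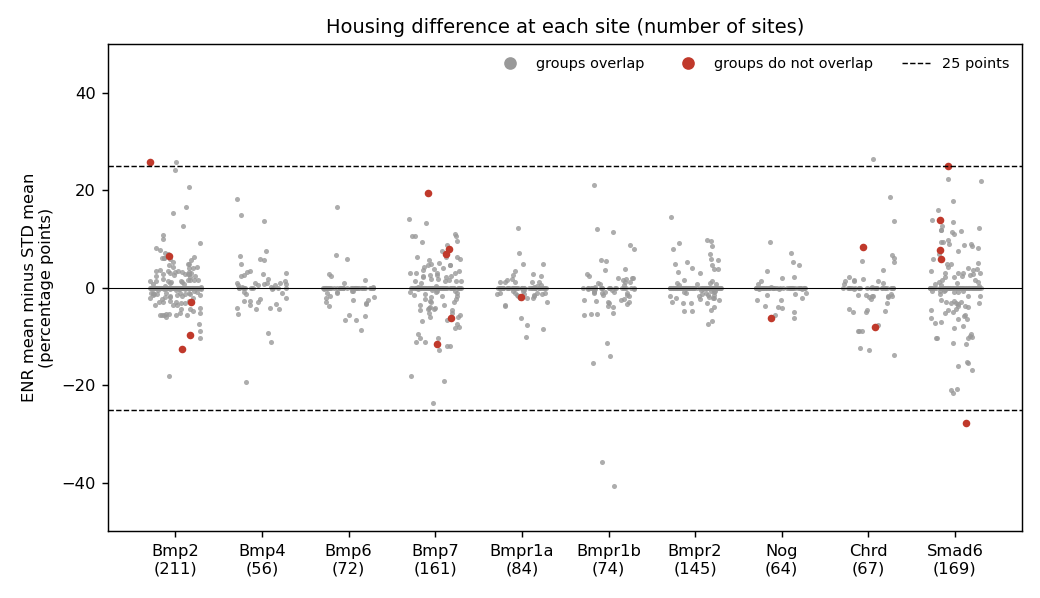
Difference of group means (ENR minus STD, percentage points, vertical axis) at each of the 1103 sites, by gene (horizontal axis, number of sites in brackets), with sites whose groups do not overlap in red and dashed lines at 25 points in each direction. Most sites lie near 0, 6 lie beyond the lines, and 2 of those are red, 1 in Bmp2 and 1 in Smad6.

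Neighbouring sites were also averaged over patches, in which each site lies within 200 bases of the next. The 10 genes had 68 patches, and 51 of them had at least 3 sites and varied. The groups were apart in 3 of the 51, against 8.81% of all such patches. One was the stretch of Bmp2 from 2324 to 2615 bases, at 3.47, 2.12 and 2.59% in STD and at 3.75, 3.86 and 5.83% in ENR. The second was the stretch of the Bmp6 promoter printed above, and the third was the intronic patch of Bmp7 at 5788 to 5888 bases, at 5.43, 3.78 and 1.94% in STD and at 6.67, 7.93 and 8.87% in ENR. Differences were at most 4.10 points in these 3 patches (exact permutation p = 0.1 each), and they were higher in ENR in Bmp2 and Bmp7 and lower in Bmp6. Smaller patches were not counted. A patch of 2 intronic sites in Smad6, from 54659 to 54668 bases, also had groups apart. It was at 47.3, 56.0 and 62.6% in STD and at 34.7, 38.5 and 45.2% in ENR (difference -15.8 points, exact permutation p = 0.1).

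The difference between promoter and body was also compared between the groups. It did not stand apart in any of the 8 genes, while 7.59% of all genes had groups apart. The ENR minus STD difference of this contrast ran from -9.35 points in Chrd (-1.06 without ENR replicate 1 and -17.3 without ENR replicate 2) to 1.25 points in Smad6, and the smallest limma adjusted p was 1.00.

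Other genes of BMP signalling were examined as a list of 46 genes that were not among the 10. Of these, 43 had a site, and 36 had at least 3 promoter sites. A promoter mean under 10% was found in 30 of the 36, with a median of 1.89%. The lowest promoter means were those of Acvr2a (0.790% ± 0.297, SD over 6 mice), a type II receptor gene, Smad9 (0.798% ± 0.732), a receptor-regulated Smad gene, and Smurf2 (0.859% ± 0.55), a ubiquitin ligase gene. The highest were those of Gdf2 (75.1% ± 15.5, 4 sites), a ligand gene, Dand5 (40.6% ± 5.53, 4 sites) and Sostdc1 (20.4% ± 9.01, 8 sites), both genes of secreted antagonists. All 3 of the highest had few sites, and none of the 10 genes reached such a level.

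The promoter was called lower than the body in 9 of 27 genes of that list (33.3%), against 63.9% of all genes. These were Bmp8a, Acvr2a, Smad1, Smad9, Fstl1, Chrdl2, Bmper, Smurf1 and Tll2, and the difference ran from -92.5 points in Fstl1 to -25.6 points in Smurf1. None was called higher. For housing, 0 of 40 genes of the list were called, and the smallest limma adjusted p was 1.00. The groups were apart in 1 of the 40, Gdf6, a ligand gene (2.003% in STD and 3.12% in ENR, exact permutation p = 0.1), against 8.47% of all genes.

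A pair of letter patterns linked to Smad binding, GGCGCC and GTCTAGAC, were searched on both strands of the RefSeq promoters (GRCm38, 250 bases before to 50 after a start). Both read the same on either strand and do not overlap in letters. Promoter entries of Bmp2, Bmp7 and Nog were not among those used. GGCGCC was found in the promoters of Bmpr1a, Bmpr2 and Chrd and in 11.9% of all 32851 promoters, and GTCTAGAC was found in that of Smad6 and in 0.213% of all. Of the covered promoter sites of the 10 genes, 9 at 7 CpGs lay within a GGCGCC, in Bmp2, Bmp7, Bmpr2, Nog and Smad6. They averaged 0.0926% ± 0.227 (SD over 6 mice), and the other 834 promoter sites averaged 1.78% ± 0.131. Only the 1 site in Bmp2 was above 0 (mean 0.833%). Sites at 0 in all 6 mice were common, as 458 of all 843 promoter sites (54.3%) were. Whether the sites within GGCGCC differ from other promoter sites was not tested. A match is a description of the letters and does not show binding.

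The gene most like each of the 3 genes with most sites was found by the Euclidean distance over 12 values, the promoter and the body mean in each of the 6 mice, among 6866 genes with at least 5 sites in both. For Bmp2 it was Kcnk13 (distance 4.71), with a promoter mean of 0.997% and a body mean of 9.003%. For Smad6 it was A4galt (distance 4.37), with 2.21% and 42.6%. For Bmp7 it was Teddm2 (distance 2.51), with 1.35% and 64.3%.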

How the data were processed

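RRBS libraries of 6 dentate gyri (3 STD, 3 ENR, each from a separate mouse) were sequenced by the authors. Per the submitters' processing notes, the tools were Trim Galore 0.4.0, cutadapt 1.8.1, Bismark 0.16.1 and methylKit 1.5.2, with alignment to mm10. The authors kept cytosines with at least 10 reads in all libraries and deposited the percent of methylated reads at each of 890041 CpG sites. No value was missing, and the number of unused library columns was 0. Read numbers were not used here, so the study's test on reads could not be run, no interval that needs depth is given, and each site weighed the same.

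Site percentages were averaged over the promoter, the body or the whole region of each gene (at least 3 sites) in each library. All genes were fitted with limma 3.58.1 in R 4.3.3 (eBayes with a variance trend) and p-values were adjusted by Benjamini-Hochberg. A call needed an adjusted p under 0.05 and over 25 percentage points. Promoter minus body was tested within libraries. Single genes were also compared by two-sided exact permutation over the 20 regroupings. The exact sign-flip test of promoter minus body has a smallest p of 0.03125, and this value was reached by Bmp2, Bmp4, Bmp6, Bmp7, Bmpr1b and Smad6. These 6 of 8 genes were below 0 in all 6 mice, as were 82.7% of all 8687 genes tested. The procedure was tested on simulated data. All 10 genes were named, along with the largest site difference per gene over 25 points with groups apart and, in each direction, the 2 sites of lowest limma p. The genes and lists were chosen with earlier results of these data known.

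Replicate numbers 1 to 3 are shared by the groups, though no label says that a number marks a litter, batch or day. Deviations from the group mean of the whole-region means of all genes correlated at 0.157, 0.130 and 0.322 between mice with the same number and at -0.221 to 0.121 between mice with different numbers. As each same-number value was above 0.1, the numbers were treated as pairs in an alternative fit with a replicate block. Over single sites the same correlations were 0.0552, 0.0319 and 0.125. Other alternatives covered the scale, site averages, strands, promoter definitions, filters, quantile normalization, overlapping gene records and each library left out.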

Additional observations from a re-analysis of the deposited data

How the results depend on the processing

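No gene of the table was called for housing in the region, promoter or body under any alternative run, and the replicate block left 0 calls, with differences that it cannot change, since each number occurs once in each group (lowest adjusted p of a gene in that fit 0.880). Promoter minus body called 5718 genes in the reported analysis, 2545 with at least 10 sites in both parts (4243 genes tested) and 1633 with a promoter of 1 kb upstream of the gene start only (9667 genes tested). Sites of the 10 genes over the limit numbered 33 at 15 points (2.99%, against 7.17% of all sites) and 1 at 40 points (0.0907%, against 0.244%), against 6 at 25 points, and from 8 to 17 with a library left out (2.6 to 3.42% of all sites). Promoter minus body of Bmp4 was 10.3 points with the gene start only, with a promoter of 500 bp and with upstream sites only, and 7.78 points without sites in other gene records. With upstream sites only, Bmpr2 was at -0.33 and Chrd at 0.058 points. Bmp7 (-24.3 points) and Smad6 (-18.6 points, and -21.3 points with 500 bp) then stayed past the adjusted p but under 25 points. By limma's adjusted p alone, Bmp2 (-1.51 points, limma adjusted p = 0.263) and Bmp4 (-0.20 points, adjusted p = 0.861) did not pass with medians over sites, nor did Bmp4 with averaged strands (-2.002 points, adjusted p = 0.0552). Chrd passed with the gene start only (-6.91 points, limma adjusted p = 0.000553), with quantile normalization (adjusted p = 0.0443) and without ENR replicate 2 (adjusted p = 0.0336). The causes were not tested. What depth limits is unknown, since reads per site are not given.

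Housing differences changed sign mostly where they were small. On the arcsine scale (radians), they were 0.00035 for the region, 0.0043 for the body and -0.0058 for promoter minus body of Bmp7, -0.0022 for the promoter of Bmp2 and 0.0030 for the body of Smad6. The values that follow are percentage points. Quantile normalization gave region differences of 0.0079 in Bmp7, 0.043 in Nog and 0.0053 in Chrd, promoter differences of 0.16 in Bmp7, 0.019 in Bmpr1a and 0.043 in Nog, body differences of 0.37 in Bmpr1b and 1.2 in Smad6, and -0.28 for promoter minus body in Smad6. Averaged strands gave 0.39 for the region of Chrd, -0.055 for the promoter of Bmp2 and 0.34 for the body of Bmpr1b. Medians over sites gave -0.10 for the promoter of Bmp4, -2.12 for the body of Bmp2, and 2.12, -0.22 and 2.94 for promoter minus body of Bmp2, Bmp4 and Bmpr1b. Without sites in other gene records, the region differences were 0.26 in Bmpr1a and 8.08 in Chrd. With a promoter of 500 bp, the promoter of Bmp2 was at -0.099, the body of Bmpr2 at 0.36 and its promoter minus body at -0.060. With the gene start only, the promoter of Bmpr1a was at 0.10 and promoter minus body of Bmpr1b at 1.83. With upstream sites only, the promoters of Bmp2, Bmpr1a and Bmpr2 were at -0.61, 1.82 and -0.18, the bodies of Bmpr2, Chrd and Smad6 at 0.55, -0.15 and 0.017, and promoter minus body of Bmp7, Bmpr1b and Bmpr2 at -0.19, 0.56 and -0.73.

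With 1 library left out, region differences ran from -0.54 to 0.022 in Bmp7, from -2.01 to 0.17 in Bmpr1b, from -1.36 to 0.36 in Chrd and from -1.02 to 0.90 in Smad6. Promoter differences ran from -0.11 to 0.21 in Bmp2, from -0.49 to 0.051 in Bmp6, from -0.27 to 0.27 in Bmp7 and from -0.27 to 0.079 in Bmpr1a. Body differences ran from -0.17 to 1.2 in Bmp4, from -2.64 to 2.75 in Bmpr1b, from -0.81 to 0.36 in Bmpr2, from -0.40 to 15.9 in Chrd and from -3.94 to 1.21 in Smad6. Differences in promoter minus body ran from -0.92 to 0.81 in Bmp4, from -0.086 to 1.49 in Bmp6, from -3.67 to 1.41 in Bmpr1b, from -0.067 to 1.32 in Bmpr2 and from -0.51 to 4.75 in Smad6. Promoter minus body itself kept each call at 25 points and each direction among the 8 genes with a library left out. Ranges that kept their sign were, for the promoter, 0.21 to 0.98 in Bmp4, -2.11 to -0.92 in Bmpr1b, 0.28 to 0.51 in Bmpr2, -0.43 to -0.028 in Nog, -1.64 to -0.91 in Chrd and 0.47 to 0.81 in Smad6, for the body, 1.06 to 3.37 in Bmp2, -1.80 to -0.17 in Bmp6 and -1.44 to -0.19 in Bmp7, and for promoter minus body, -3.43 to -0.89 in Bmp2, 0.10 to 1.34 in Bmp7 and -17.3 to -1.06 in Chrd.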
